A study of Mus musculus with 10 samples.

Results

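Dnmt3a, the gene targeted in these mice, was examined through H3K27ac, the acetylation of lysine 27 of histone H3. The gene was represented by every region of the deposited table that overlaps chr12:3790000-3930000 in the mm9 build, a window set around the Dnmt3a locus. There were 10 such regions among 50898 in all, 7 in the class prom (read here as promoter) and 3 in the class enh (read here as enhancer). A further 45 regions lay within 500 kb on either side. The libraries came from the cerebral cortex of C57BL/6J mice aged 8 weeks: 5 heterozygous knockout animals (Het, DNMT3AKO/+ in the labels) and 5 wild-type animals (WT). The labels describe them as littermate pairs, 3 male and 2 female, so Het and WT replicates with the same number are taken to share a litter. The titles of the 2 animals of replicate 5 carry no shared litter number. Their pairing was read from the headers of the deposited values, which join both numbers. The label of Het replicate 5 also contains the term cKO, while its genotype field is that of the other Het animals. Values are pseudo-counts, read counts that the authors adjusted to 1 common library size. Reads in regions, recovered from them, ran from 4209117 to 8453140 in Het and from 2771534 to 7101495 in WT libraries, with WT replicate 5 the shallowest.

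Dnmt3a encodes a de novo DNA methyltransferase, an enzyme that adds methyl groups to cytosines that carried none on either strand. In neurons it places methylation both at cytosines followed by guanine and at cytosines in other contexts, most of it in early postnatal life. H3K27ac marks active promoters and enhancers, and broad domains of it are found at genes with key roles in a cell type. The mark is not a measure of transcript, protein or gene copies. The labels do not say which stretch of Dnmt3a the knockout allele lacks, so the values below check neither the deletion nor the genotype labels.

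RefSeq lists 3 Dnmt3a transcription starts in the promoter table used here, all on the plus strand of chromosome 12 in the GRCm38.p6 build. The second lies 0.18 kb and the third 84.8 kb downstream of the first, so the gene has a promoter inside its own body. The 250 bases before the first start (upstream) and the third (downstream) are shown because they are the annotated promoters of the gene whose acetylation is described here. Capitals mark each C followed by G, the main target sequence of DNA methyltransferases.
Dnmt3a upstream start: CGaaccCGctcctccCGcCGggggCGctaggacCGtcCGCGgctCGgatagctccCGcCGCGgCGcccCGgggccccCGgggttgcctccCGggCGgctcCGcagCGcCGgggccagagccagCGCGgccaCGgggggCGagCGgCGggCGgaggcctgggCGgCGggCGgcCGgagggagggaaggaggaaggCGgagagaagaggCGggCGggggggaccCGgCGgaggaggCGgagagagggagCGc
Dnmt3a downstream start: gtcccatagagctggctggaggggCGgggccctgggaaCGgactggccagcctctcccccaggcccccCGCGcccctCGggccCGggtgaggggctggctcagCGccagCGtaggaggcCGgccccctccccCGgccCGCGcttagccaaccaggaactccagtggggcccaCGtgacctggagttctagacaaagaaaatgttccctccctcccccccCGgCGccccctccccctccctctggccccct
The stretch before the first start held 38 CG sites and had a GC content of 82.4%. Only 1.88% of the 32851 RefSeq promoter entries held as many CG sites in the same 250 bases, and the median entry held 6. The stretch before the third start held 15 CG sites at a GC content of 73.6%, and 27.3% of entries held as many. The GC box, GGGCGG on either strand, occurred 5 times before the first start and 1 time before the third. At least 1 GC box was found in 32.7% of all entries. The E-box CACGTG, which reads the same on both strands, was found 1 time before the third start and not before the first, against 6.02% of entries with a match. Neither CCAAT nor TATAAA was found on either strand of the 2 stretches, against 33.8% and 12.4% of entries. Coordinates of the table are in mm9, so no region was assigned to a start. RefSeq also places the long noncoding RNAs Dnmt3aos and Gm31623 within the span of Dnmt3a, and acetylation there cannot be divided between overlapping genes. The nearest protein-coding genes in RefSeq are Dtnb on the 5′ side and Pomc on the 3′ side.

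Acetylation covered most of the Dnmt3a window. The 10 regions spanned 94.4 kb, or 67.4% of the 140 kb, against 17.3% of the 1000 kb of flanking sequence. Divided into tiles of 140 kb, the whole table gave 11483 tiles with at least 1 region, and 0.984% of them had as large a summed region width. The summed signal of the window, 2712 pseudo-counts (mean over the 10 libraries), was reached by 1.07% of tiles, and the median tile held 277. The number of regions set the window apart less, since 8.73% of tiles held 10 or more. Of the 10 regions, 6 were 8 kb wide or more, against 5 of the 45 flanking regions and 10.1% of all regions. These are descriptions of the table. Over the window and its flanks together, 6 numbers of the enh series were skipped, and the exact places of those regions are not known. The numbers rise along the chromosome here, and a skipped number falls between enh.8326 in the window and enh.8328 (chr12:3989627-3991951) in the flank. A region absent from the table may thus lie at the 3′ end of the window.

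The strongest region of the window was prom.3207 (chr12:3805042-3826892), 21.9 kb wide, with a mean of 906 pseudo-counts over the 10 libraries. It was wider than 97.4% of the prom regions and stronger than 97.9% of them. Per kb it held 41.5 pseudo-counts, more than 70.3% of the prom regions. It thus ranked higher among prom regions by width than by height. The next strongest was prom.3211 (chr12:3877148-3897699), 20.6 kb wide, with a mean of 558 pseudo-counts and 27.1 per kb. Both belong to the 535 prom regions of 20 kb or more, and their centres lie 71.5 kb apart. Together they held 54.0% of the signal of the window, 33.4% in prom.3207 and 20.6% in prom.3211.

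The space between these 2 promoter regions was filled by 4 others with short gaps. The region enh.8325 (chr12:3831081-3846518) was 15.4 kb wide and averaged 375 pseudo-counts, above 98.4% of enh regions in both width and signal. The regions prom.3209 (chr12:3852521-3863330) and prom.3210 (chr12:3865323-3874877) were 10.8 and 9.56 kb wide, with means of 322 and 286 pseudo-counts. Per kb they were alike, at 29.8 and 29.9. Between enh.8325 and prom.3209 stood the narrow prom.3208 (chr12:3849382-3851299), 1.92 kb wide, with a mean of 36.9 pseudo-counts. The gaps between neighbours in this stretch ran from 1221 to 4188 bp.

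Towards the 3′ side of the window the signal thinned out. The regions prom.3212 (chr12:3898752-3900473) and prom.3213 (chr12:3905881-3907718) were 1.72 and 1.84 kb wide and averaged 36.8 and 32.2 pseudo-counts. Despite the class prom, both lay in the lowest 15% of that class for signal, at the percentiles 13.8 and 11.1. The narrow prom.3208, which lies between the wide regions, was there too, at the percentile 13.9, so such low signal was not confined to the 3′ side. The last region, enh.8326 (chr12:3909513-3918312), was 8.80 kb wide but flat. It held 12.5 pseudo-counts per kb, and only 2.88% of enh regions held less. On the 5′ side, enh.8324 (chr12:3790988-3792926) was 1.94 kb wide with 25.5 pseudo-counts per kb, more than 91.9% of enh regions. It began 1458 bp after the end of prom.3206, the nearest flanking region.

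**Figure D1:**
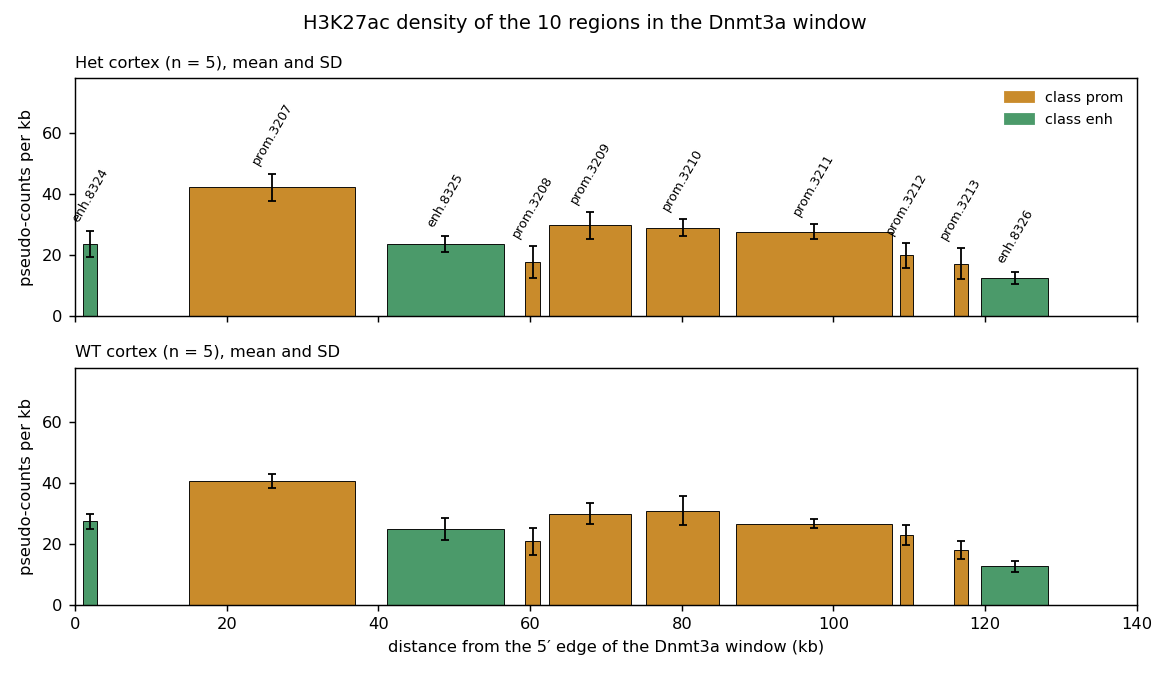
Mean H3K27ac in pseudo-counts per kb (vertical axis) against distance in kb from the 5′ edge of the Dnmt3a window, with each bar as wide as its region, Het above and WT below; error bars are the SD over 5 animals. The bar of prom.3207 is the tallest in both genotypes, and enh.8326 is the lowest.

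**Figure D2:**
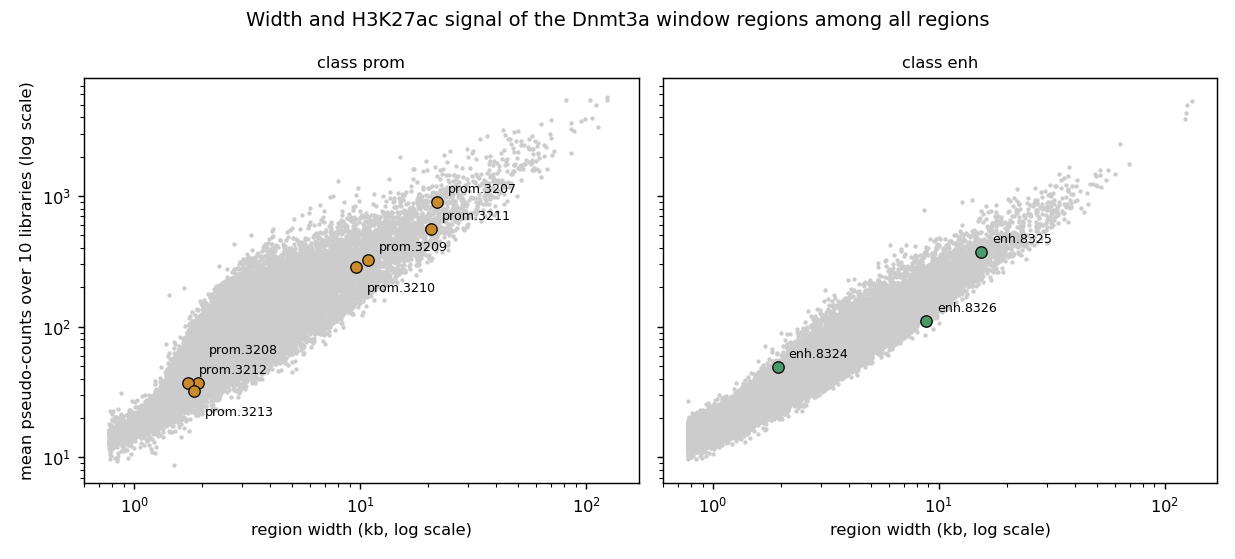
Region width in kb and mean pseudo-counts over 10 libraries, both on log scales, for every prom region (left) and enh region (right) in grey and the Dnmt3a window regions in colour. The wide regions prom.3207, prom.3211 and enh.8325 lie towards the upper end of their class, and 3 narrow prom regions lie near its lower end.

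The first comparison asked whether H3K27ac at Dnmt3a differs between Het and WT cortex. It did not pass the test in any of the 10 regions, and Het and WT values overlapped in all of them. Unless the litter block is named, SEs, intervals and p-values are from a fit of sex and genotype that does not use the litter pairs. At prom.3207, Het replicates 1 to 5 had 959, 1054, 868, 938 and 788 pseudo-counts, against 841, 876, 868, 888 and 979 in WT replicates 1 to 5. Het values thus surrounded the WT values, with the highest value in Het replicate 2 and the lowest in Het replicate 5. The means were 921 ± 99.6 in Het and 890 ± 52.5 in WT (SD, n = 5 each), a log2 fold change of 0.04 (SE 0.09, 95% interval -0.13 to 0.22; limma adjusted p = 1.00 over 50898 regions). Het was higher in 4 of 5 litters, although in the litter of replicate 3 the 2 animals were nearly equal. The sign rested on Het replicate 2, without which the log2 fold change was -0.00092.

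At prom.3211, Het replicates 1 to 5 had 509, 546, 542, 603 and 639 pseudo-counts, against 505, 541, 571, 539 and 581 in WT replicates 1 to 5. The log2 fold change was 0.05 (SE 0.09, 95% interval -0.13 to 0.23), and Het was higher in 4 of 5 litters. This value depended on single libraries, at 0.0018 without Het replicate 5 and 0.09 without Het replicate 1. At enh.8325, Het replicates 1 to 5 had 380, 376, 314, 331 and 420 pseudo-counts, against 389, 346, 373, 340 and 479 in WT replicates 1 to 5. In both genotypes the animal of replicate 5 was the highest at these 2 regions. The log2 fold change of enh.8325 was -0.08 (SE 0.10, 95% interval -0.28 to 0.12), and -0.0031 without Het replicate 3 or -0.0063 without WT replicate 5.

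The other wide promoter regions were as close between genotypes. At prom.3209, Het replicates 1 to 5 had 288, 303, 284, 332 and 399 pseudo-counts, against 313, 279, 326, 315 and 384 in WT replicates 1 to 5. At prom.3210, Het replicates 1 to 5 had 233, 279, 277, 291 and 301 pseudo-counts, against 282, 275, 281, 264 and 375 in WT replicates 1 to 5. Replicate 5 was again the highest of each genotype, and WT replicate 5 stood furthest from its group at prom.3210. The log2 fold changes were -0.01 (SE 0.10) at prom.3209 and -0.09 (SE 0.10) at prom.3210. The sign of the first turned to 0.0028 with cyclic loess, a scaling that evens out differences between libraries along signal strength. Without WT replicate 5, prom.3210 had 0.0015.

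The narrow regions had larger but less certain differences. At prom.3208, Het replicates 1 to 5 had 38.3, 24.8, 28.7, 27.9 and 49.6 pseudo-counts, against 40.9, 35.5, 36.6, 32.4 and 54.3 in WT replicates 1 to 5. Each Het animal was below its WT littermate, so Het was higher in 0 of 5 litters. The same held at the flanking regions prom.3200, uaProm.330 and prom.3219, while Het was higher in 5 of 5 litters at the flanking enh.8318. The share of all regions with such agreement is not given here. Both animals of replicate 5 were the highest of their genotype. The ranges overlapped without them too, since Het replicate 1, at 38.3, lay above the WT values of 35.5, 36.6 and 32.4. The log2 fold change was -0.25 (SE 0.18, 95% interval -0.62 to 0.12; limma adjusted p = 1.00). At enh.8324, Het replicates 1 to 5 had 37.3, 49.4, 43.2, 40.0 and 58.3 pseudo-counts, against 50.0, 51.8, 59.0, 57.9 and 48.0 in WT replicates 1 to 5. Het was higher only in the litter of replicate 5, and the log2 fold change was -0.23 (SE 0.16, 95% interval -0.55 to 0.08; limma adjusted p = 1.00).

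At the 3′ side, prom.3212 averaged 34.1 ± 7.09 pseudo-counts in Het and 39.4 ± 5.49 in WT (SD, n = 5 each), with Het higher in 2 of 5 litters and a log2 fold change of -0.22 (SE 0.18). Without Het replicate 2 it was -0.10, and without WT replicate 4 it was -0.13. The region prom.3213 averaged 31.4 ± 9.37 in Het and 33.0 ± 5.59 in WT, and enh.8326 averaged 109 ± 18.3 in Het and 111 ± 16.5 in WT. Both had Het higher in 2 of 5 litters. The narrow regions rest on few reads, 16 to 74 per library over the 4 regions under 2 kb wide, whereas prom.3207 had 485 to 1586.

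**Figure D3:**
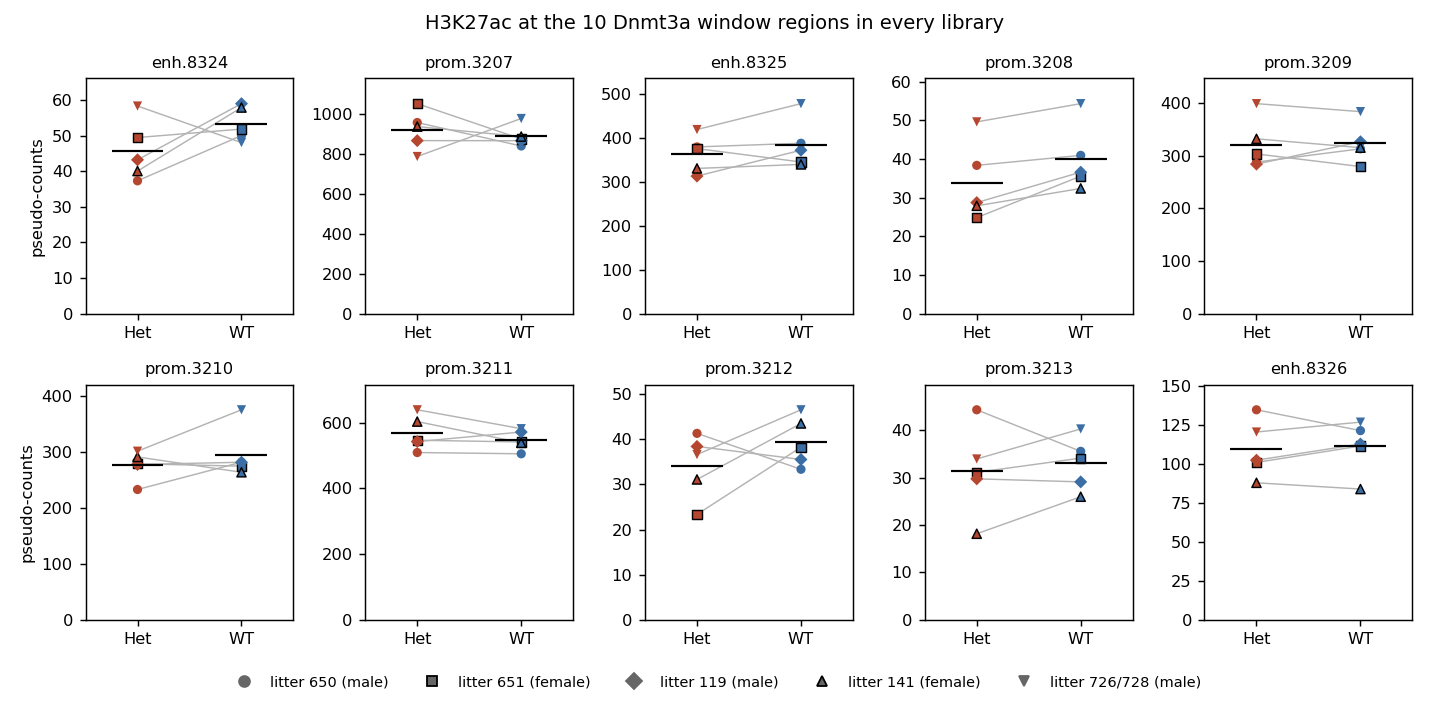
Pseudo-counts (linear axes from 0) at each of the 10 Dnmt3a window regions, Het on the left and WT on the right of each panel; grey lines join littermates, marker shapes give the litter, black edges mark females and horizontal bars are means of 5 animals. Het and WT values overlap in all panels, and the lines slope the same way in all 5 litters only at prom.3208.

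Over the window, 0 of 10 regions were called by limma at an adjusted p of 0.05, against 0.00196% of all regions called (1 of 50898). At an unadjusted p under 0.05 there were 0 of 10, against 2.10% of all regions, and limma-voom on the recovered reads also gave 0 by either measure. Values of the genotypes failed to overlap in 0 of 10 regions, against 0.375% of all regions. The fitted log2 fold change was above 0 in 2 regions and below 0 in 8, with a median of -0.08, whereas 47.0% of all regions lay below 0 and their median was 0.0092. With another scaling, cyclic loess, prom.3209 turned to 0.0028, the only one of the 10 signs that changed with the scaling. The share below 0 differed by class, at 56.4% of all prom regions and 42.0% of all enh regions. The 10 regions are neighbours read from the same 10 libraries, so their signs are not independent, and the count was not tested. All 10 of the 95% intervals lay inside a 2-fold difference either way, as did those of 50429 of all 50898 regions and of all 45 flanking regions. Inside 1.5-fold lay 9 of the 10, against 79.6% of all regions, and the exception was prom.3208. A halving of acetylation, -1 on the log2 scale, was outside every interval of the window, which is not particular to these regions. In the authors' deposited table the 10 log2 fold changes ran from -0.22 (prom.3208) to 0.06 (prom.3211), each with an FDR of 1.

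The summed signal of the window did not separate the genotypes either. It was 2664, 2788, 2528, 2700 and 2846 pseudo-counts in Het replicates 1 to 5, against 2610, 2588, 2692, 2589 and 3114 in WT replicates 1 to 5. The means were 2705 ± 122 in Het and 2719 ± 225 in WT (SD, n = 5 each), and Het was higher in 3 of 5 litters. The litter differences averaged -0.0047 on the log2 scale (SD 0.10, n = 5), and the sum over the 10 regions was not tested. WT replicate 5 stood above the other 9 libraries. In reads, the window took 1555 of 2771534 in this library, a share of 0.0561% (exact binomial 95% interval 0.0534 to 0.0590%). Shares ran from 0.0447 to 0.0510% over the Het libraries and from 0.0458 to 0.0482% over the remaining WT libraries. These intervals cover counting error only. Het replicate 5, the littermate, had 0.0510% (0.0492 to 0.0528%), the highest share among Het libraries.

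Signal was divided within the window differently in Het replicate 5 than in the other Het libraries. In Het, prom.3207 held 36.0, 37.8, 34.3, 34.8 and 27.7% of the window signal in replicates 1 to 5, against 32.2, 33.9, 32.2, 34.3 and 31.4% in WT replicates 1 to 5. Het replicate 5 stood well below the other Het libraries, while WT replicate 5, the lowest of its genotype, was close to 2 of the other WT libraries. The remaining 9 regions together had 2057 pseudo-counts in Het replicate 5 and 2135 in WT replicate 5, against 1660 to 1762 in the other Het and 1701 to 1824 in WT replicates 1 to 4. At 6 of the 10 regions Het replicate 5 was the highest Het library, and at 9 WT replicate 5 was the highest WT library. Over all regions, the same libraries were the highest of their genotype in 28.0% and 26.3%. WT replicate 5 was the shallowest library, and its littermate, with 6262904 reads, was not; the part of depth in these values was not tested.

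**Figure D4:**
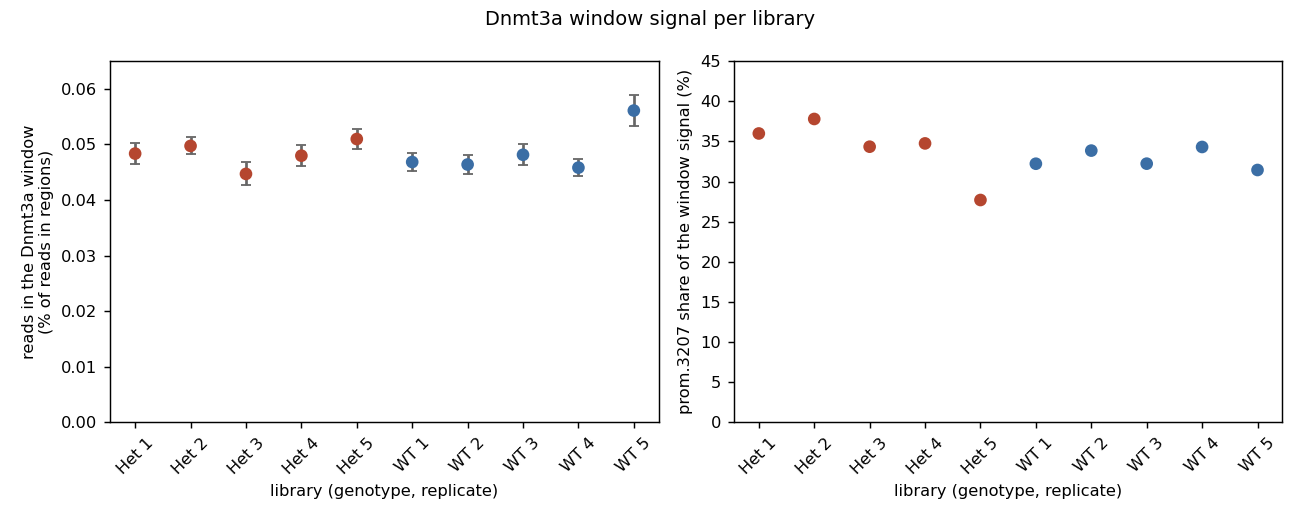
Left, reads in the Dnmt3a window as a percentage of reads in regions for each library, with exact binomial 95% intervals; right, the share of the window's pseudo-counts held by prom.3207. WT replicate 5 has the highest read share (0.0561%), and Het replicate 5 has the lowest prom.3207 share (27.7%).

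Animals of the same genotype differed at these regions about as much as at others of similar strength. The SD of log2 values within genotypes was 0.13 at prom.3207, and the median of the 500 regions closest to it in mean signal was 0.16. For prom.3211 the SD was 0.11, at the percentile 17.4 of its 500 nearest regions in signal. At the other extreme, enh.8326 had an SD of 0.23, against a median of 0.18 among its 500. Over the 10 regions, the SD stood between the percentiles 17.4 and 76.0 of regions of like strength.

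Flanking regions showed the genotype comparison around the gene. None of the 45 was called by limma, 0 had an unadjusted p under 0.05, and limma-voom gave the same counts. With the litter as a block, 4 of the 45 and 0 of the 10 window regions had an unadjusted p under 0.05, against 4.63% of all regions, and none was called. Fitted values lay above 0 in 23 flanking regions and below 0 in 22, with a median log2 fold change of 0.0067, compared with -0.08 in the window. The flank median was -0.0063 with flanks of 200 kb and -0.0057 with flanks of 1000 kb. Summed over the flanks, signal was 5060 ± 97.7 pseudo-counts in Het and 5067 ± 70.0 in WT (SD, n = 5 each). The ratio of window to flank signal was 0.535 ± 0.029 in Het and 0.536 ± 0.037 in WT.

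The nearest flanking region on the 5′ side, prom.3206 (chr12:3777506-3789529), had 307 ± 41.5 pseudo-counts in Het and 314 ± 50.3 in WT, a log2 fold change of -0.03 (SE 0.11). Here too replicate 5 was the highest in each genotype, with 376 in Het and 397 in WT. On the 3′ side the nearest was uaProm.330 (chr12:3958302-3961366), whose class, uaProm, is not explained in the labels. Het replicates 1 to 5 had 88.4, 90.7, 100.05, 96.2 and 88.0 pseudo-counts there, against 103, 101, 113, 102 and 123 in WT replicates 1 to 5. All Het values lay below all WT values, by a margin of about 1 pseudo-count between the closest. Its log2 fold change was -0.22 (SE 0.11, 95% interval -0.45 to 0.0056; limma adjusted p = 1.00), so the region did not pass. The region prom.3200 (chr12:3383187-3387312) also had no overlap, with 98.3 to 110.6 pseudo-counts in Het and 110.7 to 122 in WT and a log2 fold change of -0.17 (SE 0.11; limma adjusted p = 1.00). These 2 of 45 compare with the 0.375% of all regions without overlap. In the other direction, enh.8318 (chr12:3659962-3663759) had 81.4 ± 5.35 in Het and 69.1 ± 5.62 in WT, and enh.8314 (chr12:3546224-3551396) had 186 ± 23.8 in Het and 164 ± 27.8 in WT. Their log2 fold changes were 0.23 (SE 0.12) and 0.19 (SE 0.11), and neither passed (limma adjusted p = 1.00 for each).

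**Figure D5:**
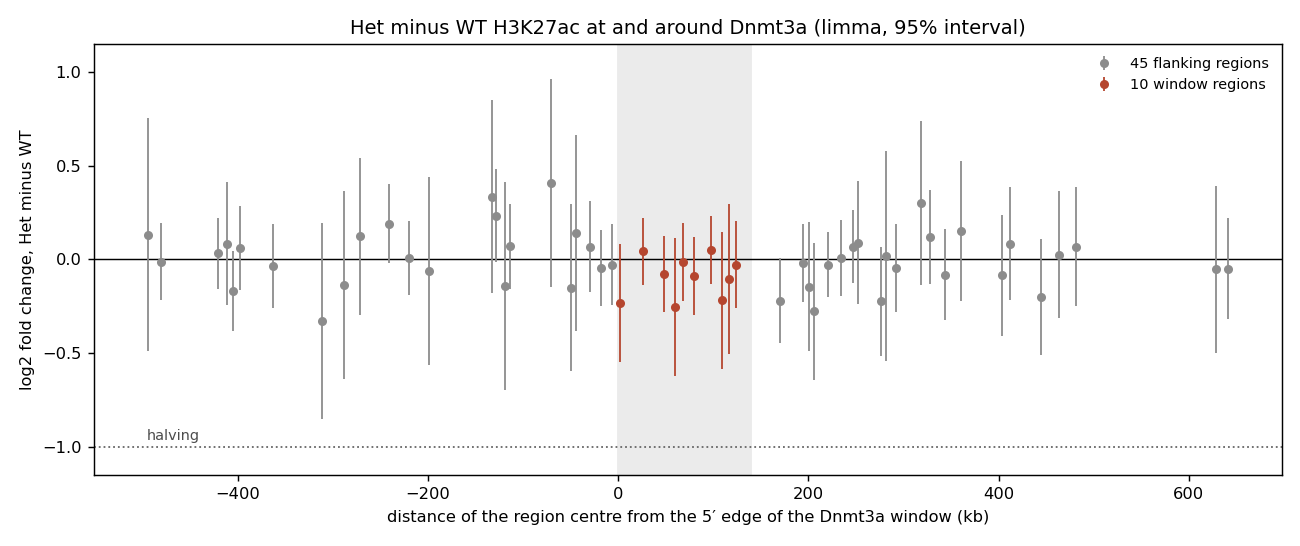
Het minus WT log2 fold change with its limma 95% interval for the 10 Dnmt3a window regions (red, shaded) and the 45 flanking regions (grey), by distance of the region centre from the 5′ edge of the window. All intervals of the window lie above the dotted line that marks a halving, as do those of all 45 flanking regions. All but 1 of the window intervals, prom.3208, lie within 1.5-fold.

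The second comparison set males against females at the same regions. Each litter was of 1 sex, so sex and litter cannot be told apart. There were 3 male and 2 female litters, and the fit treats littermates as independent animals, so its p-values, here and over all regions, do not allow for what littermates share. None of the 10 regions was called by limma, against 0.904% of all regions, while 2 had an unadjusted p under 0.05, against 13.2% of all regions, and limma-voom gave the same counts. The first of them was enh.8326, which averaged 120 ± 11.2 in the 6 males, compared with 96.0 ± 12.6 in the 4 females (pseudo-counts, SD). Its male minus female log2 fold change was 0.32 (SE 0.12; limma adjusted p = 0.188). Among the alternative runs it passed only when Het replicate 3 was left out (log2 fold change 0.37, limma adjusted p = 0.0433). Leaving out single libraries gave 0.24 (without WT replicate 4, limma adjusted p = 0.708) to 0.40 (without WT replicate 2, limma adjusted p = 0.0897). The other was prom.3208, at 41.4 ± 9.24 in males against 30.2 ± 4.75 in females and a log2 fold change of 0.43 (SE 0.19; limma adjusted p = 0.295). At prom.3207, males had 884 ± 72.3 pseudo-counts and females 939 ± 80.9, a log2 fold change of -0.09 (SE 0.09). In order of level, prom.3207 averaged 996 in Het females, 896 in WT males, 882 in WT females and 872 in Het males, and no neighbours in this order differed beyond their spread, since Het females, at 938 and 1054, overlapped the range of WT males, 841 to 979.

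The third comparison asked whether the genotype difference depends on sex. No window region was called by the limma interaction test, and 0% of all regions were. At an unadjusted p under 0.05 there were 0 of 10, against 1.36% of all regions, and limma-voom gave 0 of 10 as well. The largest interaction was at prom.3212, where the Het minus WT log2 difference was higher in males than in females by 0.60 (SE 0.36; limma adjusted p = 1.00). At prom.3210, Het was lower in all 3 male litters and higher in both female litters. Its interaction was -0.28 (SE 0.21; limma adjusted p = 1.00), so this split by sex did not pass.

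The regions elsewhere in the genome whose profile over the 10 libraries was most like that of prom.3207 were sought by the root mean square difference of centred log2 values. The 5 closest were prom.7077 on chromosome 18, enh.16328 on chromosome 15, enh.35827 on chromosome 6, prom.13529 on chromosome 7 and prom.11623 on chromosome 5. Their differences from prom.3207 ran from 0.06 to 0.07 on the log2 scale, against a median of 0.25 over all regions. The closest, prom.7077, averaged 258 ± 16.2 pseudo-counts in Het and 251 ± 10.7 in WT (SD, n = 5 each). None of the 5 was called between genotypes, against 0.00196% of all regions called. They were chosen for a profile like that of prom.3207, itself not called, so this count carries no information of its own. With 10 libraries and 50898 regions, some close profiles are found for any region, and no test was made.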

How the data were processed

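H3K27ac ChIP-seq libraries of 10 mice were used, 5 Het and 5 WT, grouped by the genotype labels. Bowtie2, edgeR and the mm9 build are named in the submitters' processing notes; the calling and classing of regions is not described in the sources read. Each region has 1 deposited signal value per library, which the authors call pseudo-counts in the file headers. The authors' comparison of genotypes, per the file headers, is given as a log2 fold change with a p-value, its FDR and a mean level in log2 CPM. Worked out from the 2 regions with that FDR under 0.05, it corresponds to 63596 regions, against 50898 present. Shares and percentiles here therefore cover only the regions present. Adjustment to a common library size removes depth, would hide a uniform change of acetylation and draws values of shallow libraries towards their genotype mean. Whole reads were recovered by inverting the adjustment, at a common dispersion of 0.0151; 100% of values fell within 0.1 read of a whole number.

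Since these are adjusted values, limma 3.58.1 (trend, robust; R 4.3.3) was fitted to log2(value + 1) of all 50898 regions with sex and genotype as terms, with Benjamini-Hochberg adjustment over all regions, a threshold of 0.05 and no filter. Fold changes on this scale understate those of weak regions. The interaction was its own coefficient. The recovery and the fit were checked on simulated data. Replicate numbers mark shared litters, per the labels, and for replicate 5 per the file headers. Deviations of littermates from their genotype means had correlations over regions of 0.232, 0.123, 0.0796, 0.365 and 0.419 in replicates 1 to 5. The highest correlation with an animal of another litter and the other genotype was 0.168, 0.179, 0.334, 0.334 and 0.0993. In replicates 2 and 3 the littermate was thus not the closest, and animals of the same genotype were not compared. Named were all window regions, the nearest flanking region on each side, the 2 flanking regions with the smallest p in each direction and the 5 most alike to the strongest prom region. Window, lists and tests were chosen with earlier results of these data known.

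Alternatives were 3 other scalings, pseudocounts of 0.5 and 5, keeping only regions with a mean of 20 or more, limma-voom on the recovered reads, the litter block, no sex term, other flank sizes and leaving out each library. Promoter sequences are from RefSeq, GRCm38.p6. Cell type markers and other genes of DNA methylation, which need an annotation of mm9, were not analysed here, so the labelled tissue was not checked against markers.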

Additional observations from a re-analysis of the deposited data

Results flagged for a closer look

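Each of 28 sets of values from 1 genotype was checked for a single distant library, and 4 had one; chance gives about 1 in 20 groups, and these 4 share libraries and regions. WT replicate 5 had 375 pseudo-counts at prom.3210, against 264 to 282 in the other WT libraries. The same library had a window sum of 3114 pseudo-counts, against 2588 to 2692 in the other WT libraries, and a ratio of window to flank signal of 0.601, against 0.515 to 0.530. Het replicate 3 had a ratio of window to flank signal of 0.486, against 0.538 to 0.557 in the other Het libraries.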

How the results depend on the processing

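In every alternative run, 0 window regions and 0 flanking regions were called between genotypes, and 0 window regions by the interaction test. The replicate block for litters changed no call of the window or the flanks; at prom.3207 it left the log2 fold change at 0.04 with an SE of 0.07. Without 1 library at a time, prom.3207 ranged from -0.00092 (without Het replicate 2) to 0.094 (without Het replicate 5), and the count of window regions called between males and females from 0 to 1 (without Het replicate 3). Signs of values that were not called turned in some settings. Cyclic loess gave 0.0028 at prom.3209 between genotypes and 0.061 at prom.3211 between males and females, where limma-voom gave 0.0077. When single libraries were left out, prom.3209 ranged from -0.092 to 0.043, prom.3210 from -0.12 to 0.0015, prom.3213 from -0.21 to 0.042, enh.8326 from -0.088 to 0.037 and prom.3206 from -0.11 to 0.064 between genotypes, and prom.3211 from -0.041 to 0.033 between males and females. Without single libraries, and with no change of sign, prom.3211 ranged from 0.0018 to 0.091 and enh.8325 from -0.12 to -0.0031 between genotypes. In the same runs prom.3212 ranged from -0.30 to -0.10, prom.3208 from -0.37 to -0.16, enh.8324 from -0.33 to -0.16 and enh.8314 from 0.11 to 0.26. Between males and females, also with no change of sign, prom.3207 ranged from -0.13 to -0.031. The causes were not tested. Over all regions, the count called between genotypes was 1, but 3 with the replicate block and with the block on recovered reads (an alternative chosen after seeing the data), 0 without the sex term and 0 to 1 without single libraries. The 4 regions under 2 kb wide, at 16 to 74 reads per library, limit what can be detected there.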
